A study of Zea mays with 24 samples.

Results

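SCR1 (Zm00001d052380) and SCR1h (Zm00001d005029) are the SCARECROW pair of maize (Zea mays), chosen here by their identifiers as 2 of the 39510 genes in the deposited table. RNA sequencing measured them in the root tip in 24 libraries of 8 groups (n = 3 each), taken 7 days after germination. The endodermis was sorted by flow cytometry from a ZmSCR::RFP line in a B73/Hi-II background, in which an SCR promoter drives a red fluorescent protein. The quiescent center was sorted from a ZmWOX5::RFP line in the same labelled background. Root cap was dissected from root tips of wild type B73. Stele, cortex and epidermis were sorted from wild type B73 protoplasts, which are cells freed of their walls, after staining for 15 min with the dyes syto 40 and syto 81. Unsorted protoplasts and intact root tips, all from wild type B73 with the root cap removed, complete the groups. The labels do not say which copy's promoter drives the reporter, nor from how many lines or plants each library came, so p-values reflect no more than the spread among the libraries, which may be technical. Tissue, sorting method and genetic background cannot be told apart for the endodermis and the quiescent center. Where the dissected root cap is compared with protoplast groups, tissue and preparation cannot be told apart.

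SCARECROW proteins are transcription factors of the GRAS family. In Arabidopsis, SHORT-ROOT protein moves from the stele into the neighbouring layer, where it acts with SCARECROW in the asymmetric division that separates endodermis from cortex, and SCARECROW also maintains the quiescent center, the slowly dividing cells of the stem cell niche. SCARECROW is a textbook marker of the endodermis. Maize carries close copies of the gene, and the pair stands for such duplicates.

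The values are read numbers per gene divided by a size factor per library, called normalized values below. Recovered reads ranged from 21978670 to 50289026 per library. Genes near the level of the pair were lost more often in some groups than in others. For genes whose normalized value was 30 to 100 in both group mates, the share with under 3 reads was 0.357 to 1.12% in endodermis libraries, 1.80 to 20.1% in root cap libraries and 16.5 to 29.8% in quiescent center libraries, with the highest share in quiescent center replicate 1. It was at most 2.38% in stele, cortex and epidermis libraries, 13.1 to 17.9% in unsorted protoplasts and at most 3.30% in intact tips. Quiescent center replicate 1 held 0 reads of SCR1 and 2 reads of SCR1h, and results that rest on it are given with and without it.

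SCR1 was high in the endodermis and low in every other group. Its normalized values there were 1012, 1584 and 1302, a mean of 1299 ± 286 (SD, n = 3). The root cap followed, with 217, 84.8 and 48.2. All 3 endodermis libraries stood above all 21 others, of which the highest was the first root cap library, and 2.95% of the 25555 genes tested were placed like this. Because an SCR promoter of unstated copy was used for the sort, the high SCR1 is given as a description and not as a result about the tissue. The labels do not give the gene parts that the reporter carries, so reads of SCR1 and any reads of the transgene cannot be told apart in these libraries, here or in the balance and the sum below.

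Among the other groups SCR1 lay between 0 and 138 outside the root cap, and the groups overlapped widely. In the quiescent center it was 0, 73.8 and 75.4. In stele it was 19.5, 15.0 and 7.47. In cortex it was 23.4, 9.0 and 12.2, and in epidermis 33.1, 21.2 and 2.04. These dye-sorted tissues were alike in their low level, and epidermis replicate 3, with 2 reads, was the lowest of them. Unsorted protoplasts had 48.4, 7.70 and 28.6, and intact tips had 46.7, 15.5 and 138. The order of the group means from high to low was endodermis, root cap (117), intact tips (66.8), quiescent center (49.7), unsorted protoplasts (28.2), epidermis (18.8), cortex (14.9) and stele (14.0). Of the 21 pairs of groups without the endodermis, 0 were called for SCR1, so no call separated neighbours in this order below the endodermis. How many of all genes tested had no call in these pairs was not computed, so the count is not particular to SCR1.

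SCR1h went the other way. In the endodermis it was 6.38, 1.21 and 0, from 9, 2 and 0 reads in libraries that held 1427, 2623 and 1818 reads of SCR1. The last library allows up to 2.15 by counting error, at 3 reads. In the root cap SCR1h was 377, 268 and 235, above all 21 other libraries, and 3.75% of the genes tested were placed in that way. The endodermis libraries lay below all others except quiescent center replicate 1, and without that library 1.34% of the genes tested were placed below the 20 others like this.

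The means of the remaining groups lay between these extremes. In stele it was 97.6, 85.5 and 88.7. In cortex it was 79.8, 59.0 and 75.6, and in epidermis 84.5, 62.7 and 86.8. The 9 dye-sorted libraries thus ran from 59.0 to 97.6 for SCR1h and from 2.04 to 33.1 for SCR1, a spread that was larger for SCR1 as a ratio but not as a difference. The quiescent center had 1.41, 87.5 and 90.1, with all of its spread due to replicate 1. Unsorted protoplasts had 83.2, 133 and 200.03, and intact tips had 53.7, 34.5 and 143. The group means from high to low were root cap (293), unsorted protoplasts (139), stele (90.6), epidermis (78.0), intact tips (77.2), cortex (71.5), quiescent center (59.7) and endodermis (2.53). Only root cap against quiescent center was called among the 21 pairs without the endodermis, so no call separated direct neighbours in the order before the endodermis at its end. The share of all genes with so few calls in these pairs was not computed. The root cap libraries lay above those of unsorted protoplasts, the next in order, as part of their place above all 21 other libraries (3.75% of genes tested). A share of genes for unsorted protoplasts alone was not computed.

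**Figure D1:**
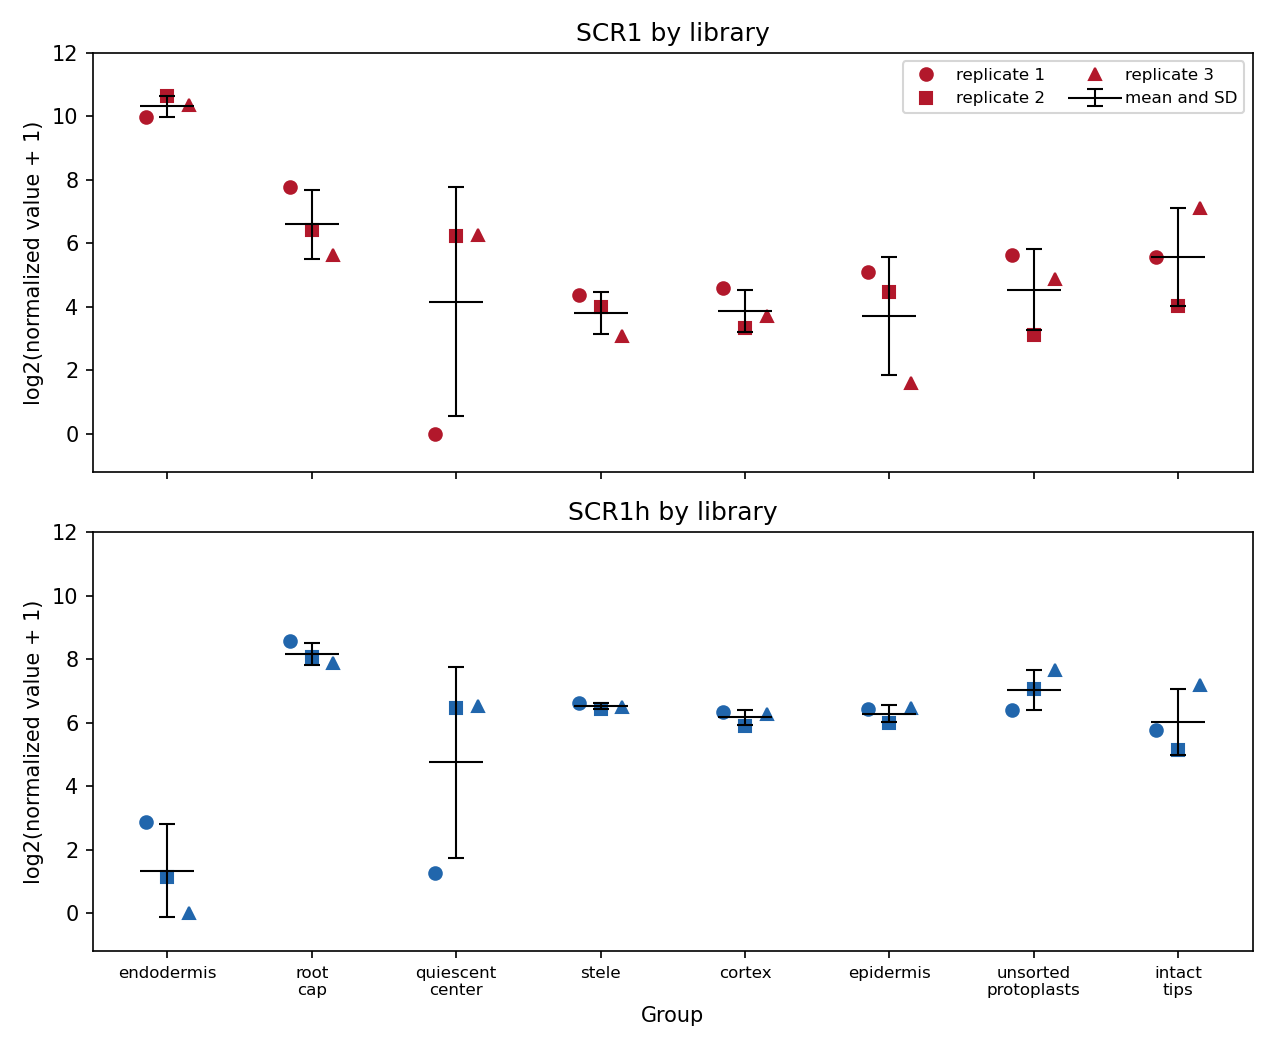
Values of SCR1 (top) and SCR1h (bottom) in each library as log2(normalized value + 1), by group, with 1 marker per replicate and the mean and SD as black bars (n = 3). The endodermis holds the highest SCR1 values and the lowest group mean of SCR1h, and the root cap holds the highest SCR1h values.

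Both copies were then compared between groups by limma on log2(value + 1), fitted over all genes, with a call at an adjusted p below 0.05 and a log2 fold change of at least 1 in size. SCR1 was 6.43 log2 units (SE 1.05) higher in the endodermis than in the average of the 4 remaining sorted tissues (limma adjusted p = 1.73e-04), and SCR1h fell by 4.59 log2 units (SE 0.82; limma adjusted p = 4.10e-04). Since the sort used an SCR promoter, the p-values, ranks and calls of SCR1 with the endodermis are descriptions, here and below. In this comparison 16.5% of the genes tested were called. The size for SCR1h depended on the pseudocount, since 2 endodermis libraries held 0 or 2 reads, and it fell by 2.64 with a pseudocount of 10. The SCR1 change ranked number 92 from the top of the 25555 genes and the SCR1h change number 215 from the bottom. In bulk samples, fewer cells of a type and less RNA per cell cannot be told apart.

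**Figure D2:**
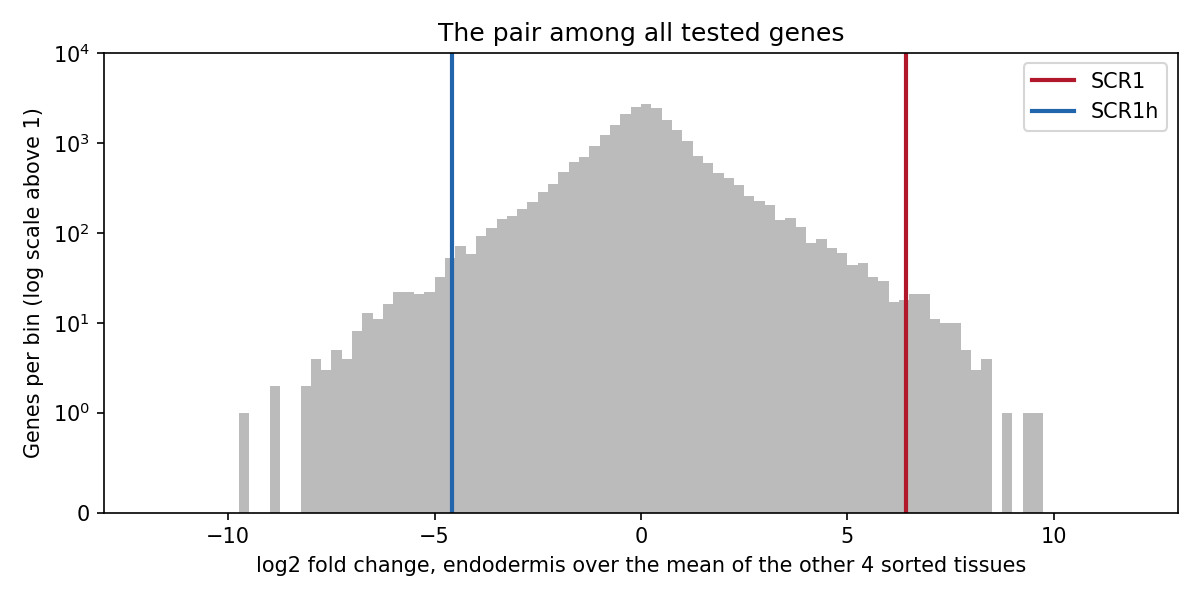
Distribution over all genes tested of the log2 fold change of endodermis over the average of the 4 remaining sorted tissues, as genes per bin on a log scale above 1, with SCR1 (red line, 6.43) and SCR1h (blue line, −4.59). The copies lie in opposite tails.

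The opposite direction held against each of the other 7 groups taken singly. SCR1 was higher in the endodermis by 6.44 log2 units against cortex (12.7% of genes called in that comparison), by 6.51 against stele (2.84% called) and by 6.60 against epidermis (21.3% called). SCR1h fell, with log2 changes of −4.83 against cortex, −5.17 against stele and −4.95 against epidermis. The stele comparison had few calls over all genes, and the pair ranked number 7 from the top for SCR1 and number 78 from the bottom for SCR1h. The SCR1h call against stele had a limma adjusted p of 0.00616, and of 0.0531 without endodermis replicate 3.

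Against the groups that were not dye-sorted, SCR1 was higher in the endodermis by 5.78 log2 units over unsorted protoplasts (14.2% called), by 4.74 over intact tips (24.6% called), by 6.16 over the quiescent center (37% called) and by 3.72 over the root cap (29% called). SCR1h fell in the same comparisons, with log2 changes of −5.70 against unsorted protoplasts, −4.69 against intact tips, −3.41 against the quiescent center and −6.83 against the root cap. The SCR1 difference from the root cap was the least firm, with a limma adjusted p of 0.0378, which was 0.0643, 0.101 and 0.0877 without endodermis replicates 1, 2 and 3, 0.0864 and 0.127 without root cap replicates 2 and 3, and 0.0618 with a pseudocount of 0.5. The SCR1 call against intact tips was also lost without intact tips replicate 2, at an adjusted p of 0.0657. Of all genes tested, 0.45% were called higher in the endodermis than in each of the other 7 groups, as SCR1 was, and 0.438% were called lower than in each, as SCR1h was.

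**Figure D3:**
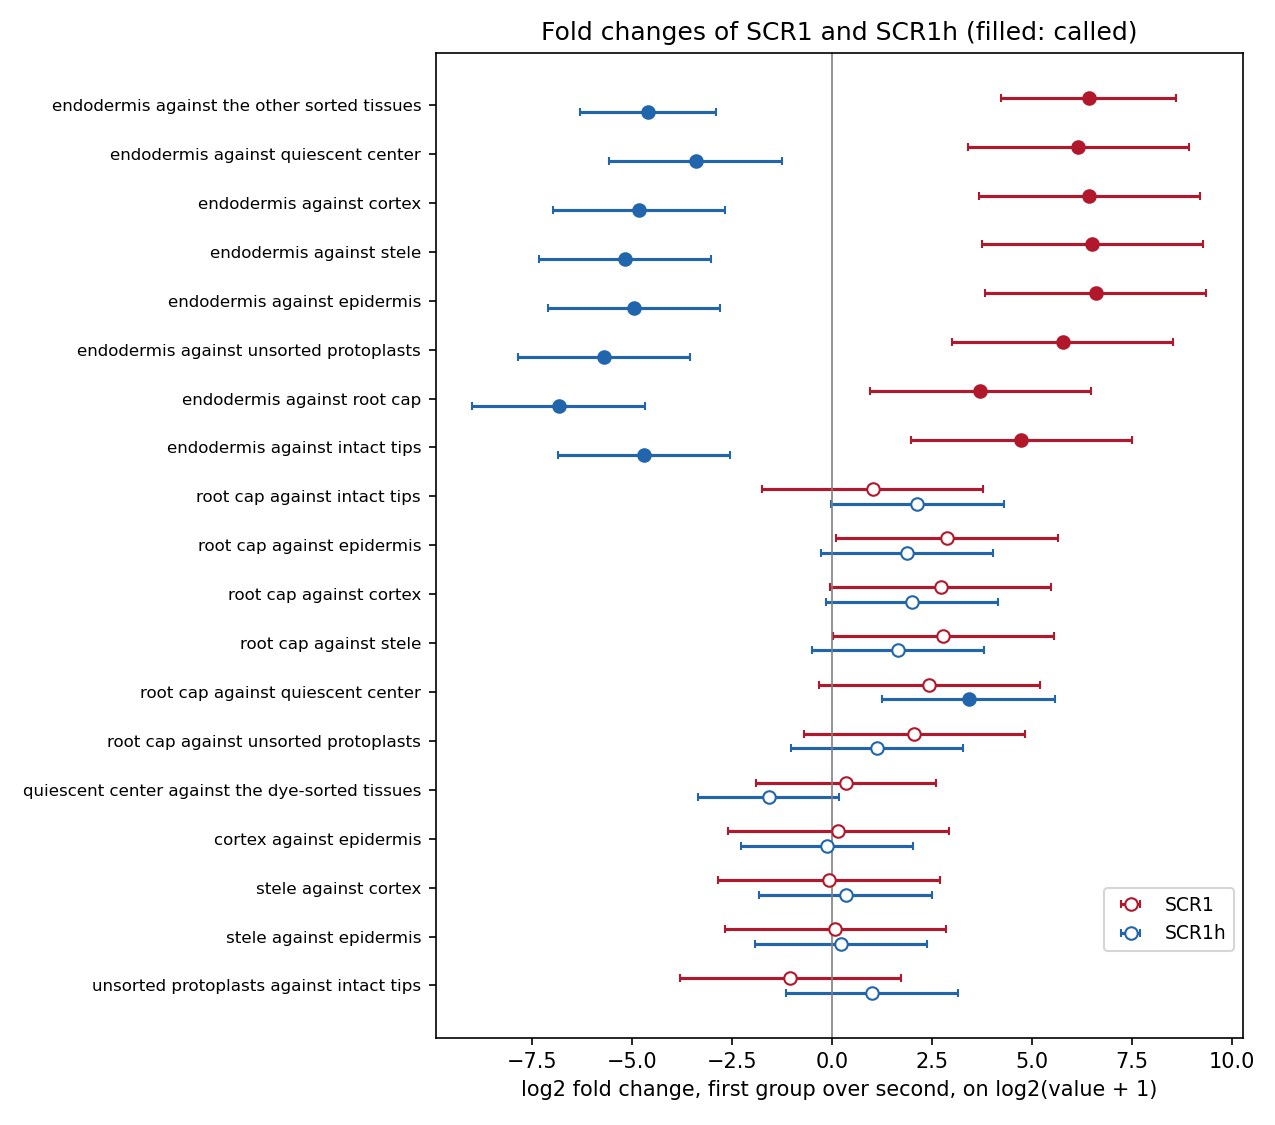
Log2 fold changes of SCR1 (red) and SCR1h (blue), first group over second, with 95% confidence intervals from the limma fit. Filled points were called. In each comparison that holds the endodermis the copies have opposite signs, and of the others only SCR1h in root cap against quiescent center was called.

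The endodermis and the quiescent center come from lines of the same labelled background. SCR1h was 6.38, 1.21 and 0 in the endodermis, against 1.41, 87.5 and 90.1 in the quiescent center. Replicate 1 of the quiescent center overlapped with the endodermis, and the other replicates lay far above it. The difference was called (limma adjusted p = 0.0127), and without quiescent center replicate 1 SCR1h fell by 5.15 log2 units (limma adjusted p = 2.79e-05). Without quiescent center replicate 2 or 3, or without endodermis replicate 3, the adjusted p was 0.0690, 0.0691 and 0.0696.

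The balance between the copies was read as the share of SCR1h in the reads of the pair. This is a share of reads and not of transcripts, since no transcript lengths were used. In the endodermis it was 0.627% (exact 95% binomial interval 0.287 to 1.19%), 0.0762% (0.00923 to 0.275%) and 0 of 1818 reads (0 to 0.203%), where 3 reads would be a share of 0.165%. These intervals cover counting error only. In the root cap the share was 63.5, 75.9 and 83.0%, and in the quiescent center 54.2 and 54.4% in replicates 2 and 3. It was 83.3 to 92.2% in stele, 77.3 to 86.8% in cortex and 71.9 to 97.7% in epidermis. Unsorted protoplasts had 63.2 to 94.5% and intact tips 50.9 to 69.0%. SCR1h thus had more reads than SCR1 in every library outside the endodermis and hardly any within it, though in intact tips replicates 1 and 3 and in the quiescent center the intervals held an equal share.

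Expressed as log2((SCR1h + 1)/(SCR1 + 1)), the balance was −8.98 on average in the endodermis and 2.10 in the 11 other sorted libraries with a pair sum of at least 10, which leaves out quiescent center replicate 1. The difference was −11.08, with an exact two-sided permutation p of 0.00549, the smallest that 364 splits can give. Over 29 such tests the adjusted p was 0.159. Of these tests, 28 compared single groups, where 3 libraries against 3 cannot go below an exact p of 0.10. Pairs with the quiescent center compared 3 libraries with 2 and cannot go below an exact p of 0.2. Every endodermis ratio, from −10.35 to −7.10, lay below every ratio of the other sorted libraries, from 0.24 to 4.85. SCR1 is part of this ratio and the sort used an SCR promoter. The p-values of the balance with the endodermis and this separation are therefore descriptions, here and below.

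**Figure D4:**
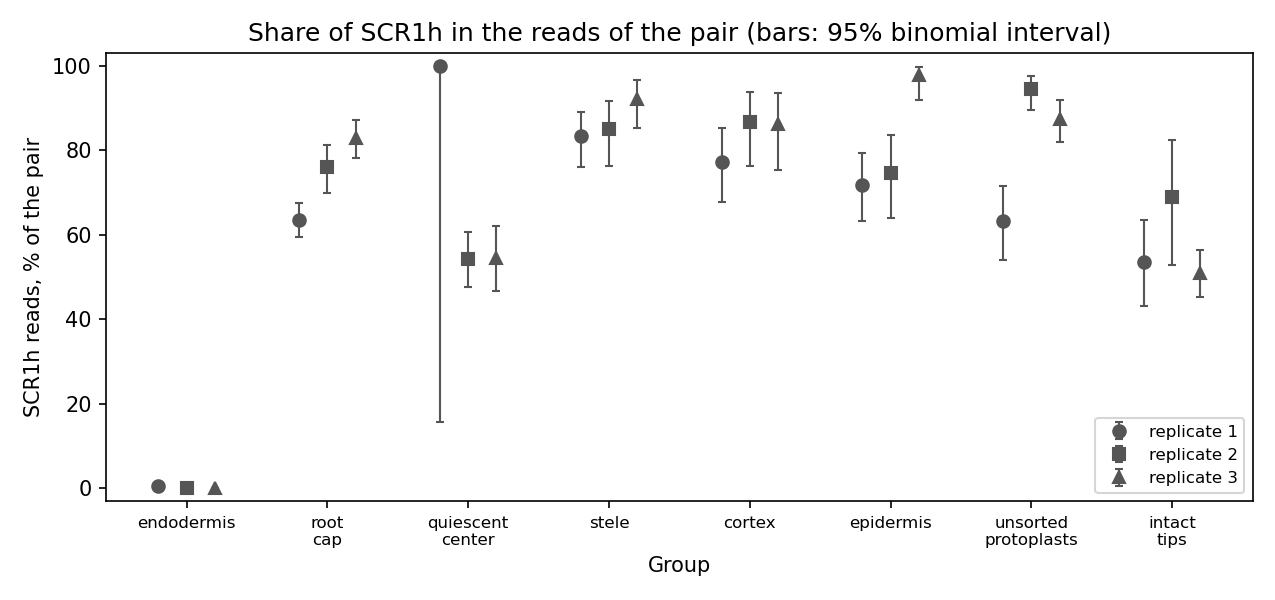
Share of SCR1h in the recovered reads of the pair in each library, in %, by group, with exact 95% binomial intervals and 1 marker per replicate. The endodermis libraries lie at 0 to 0.627%, and the widest interval is that of quiescent center replicate 1, with 2 reads in all.

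Reads from near-identical copies can be divided wrongly by the counting, so the copies were also summed. The sum was 1018, 1585 and 1302 in the endodermis, against 1.41 to 166 in the 12 other sorted libraries. Against the average of the remaining sorted tissues it was higher in the endodermis by 4.06 log2 units (SE 0.82; limma adjusted p = 0.00140). Nearly all of the sum in the endodermis was SCR1, and the sort used an SCR promoter. The p-values and calls of the sum with the endodermis are therefore descriptions too, here and below. The sum was called higher against cortex, epidermis, quiescent center and intact tips. It missed the threshold against stele (3.61 higher; limma adjusted p = 0.0699), against unsorted protoplasts (2.98 higher; 0.0602) and against root cap (1.71 higher; 0.234). Without the quiescent center in the fit it passed against all of these, with limma adjusted p of 1.26e-04 against stele, 2.86e-04 against unsorted protoplasts and 0.00948 against root cap. The calls against cortex and intact tips were lost when single libraries were left out: endodermis replicate 2 (0.0601) or cortex replicate 2 (0.0509) for cortex, and endodermis replicate 2 (0.0537), intact tips replicate 1 (0.0520) or 2 (0.0866) for intact tips. In the root cap the sum was 594, 352 and 283, above each of the 18 libraries of the other 6 groups, of which intact tips replicate 3 came nearest with 282. Of the genes tested, 4.18% were placed above these 18 libraries in the root cap.

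The root cap, which covers and protects the growing tip, held the second highest mean of SCR1 and the highest of SCR1h. SCR1 in the root cap was 2.88 log2 units higher than in epidermis (13.6% of genes called), 2.72 higher than in cortex (19.3% called), 2.79 higher than in stele (23.9% called) and 2.06 higher than in unsorted protoplasts (27.7% called). None of these passed, with limma adjusted p from 0.133 to 0.258. SCR1h was 1.88, 2.00, 1.66 and 1.13 higher in the same comparisons, with adjusted p from 0.189 to 0.439. The root cap was dissected and the other groups here are protoplasts, so tissue and preparation cannot be told apart. Fitted without the quiescent center libraries, whose spread enters every comparison, SCR1h was called against epidermis (limma adjusted p = 0.0482) and cortex (0.0293). In that fit SCR1 was called against epidermis (0.0362), cortex (0.0389) and stele (0.0299). Some other settings also gave calls against these dye-sorted tissues, as listed in the last section.

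Against intact tips, which like the root cap are not labelled as protoplasts, SCR1h was 377, 268 and 235 in the root cap and 53.7, 34.5 and 143 in the tips. The groups did not overlap, but the share of all genes placed like this was not computed. By the separate measure of limma calls, 32.6% of genes were called in this comparison. The difference of 2.14 log2 units (95% confidence interval −0.02 to 4.30) missed the threshold, with a limma adjusted p of 0.119, and passed at 0.0135 without the quiescent center in the fit. SCR1 was 1.02 higher (95% confidence interval −1.74 to 3.79), and its groups overlapped. Against the quiescent center SCR1h was 3.42 higher in the root cap (28% of genes called; limma adjusted p = 0.0168), but 1.68 without quiescent center replicate 1 (adjusted p = 0.0975).

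In the quiescent center, where SCARECROW acts in Arabidopsis, the level relative to stele, cortex and epidermis turned on replicate 1. With all libraries SCR1 differed from the mean of the dye-sorted tissues by 0.35 log2 units (95% confidence interval −1.90 to 2.61; limma adjusted p = 0.805), in a comparison with 43.6% of genes called. Without replicate 1 it was 2.43 higher (limma adjusted p = 0.0347). Quiescent center replicates 2 and 3, at 73.8 and 75.4, both lay above all 9 dye-sorted libraries, of which the highest was 33.1, and 15.7% of the genes tested were placed like this. SCR1h was lower by a log2 change of −1.57 with all libraries (limma adjusted p = 0.128) and differed by 0.16 without replicate 1 (limma adjusted p = 0.851). Without replicate 2 or 3 it was called lower, at −2.43 (limma adjusted p = 0.0393) and −2.45 (0.0354), and SCR1 turned to −0.68 and −0.69 without a call. Over all genes the median log2 change in this comparison was −0.49, and it was 0.44 for endodermis against quiescent center.

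Between stele, cortex and epidermis 0 differences were called for either copy. SCR1 differed by 0.16 between cortex and epidermis (95% confidence interval −2.60 to 2.92; 1.02% of genes called), by −0.07 between stele and cortex (−2.83 to 2.69; 4.52% called) and by 0.09 between stele and epidermis (−2.67 to 2.85; 14.9% called). SCR1h differed by −0.12, 0.35 and 0.23 in the same comparisons. The intervals are wide and leave room for differences of several fold. The SCR1h values of stele lay above all those of cortex, from a lowest of 85.5 in stele against a highest of 79.8 in cortex, as did 15% of the genes tested. The other pairs of these groups overlapped for SCR1h, and all pairs did for SCR1.

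Unsorted protoplasts against intact tips had a log2 difference of −1.03 for SCR1 (95% confidence interval −3.80 to 1.73) and 1.00 for SCR1h (−1.15 to 3.16), with 17.9% of genes called. Release from the walls was not tested apart from other steps of the preparation. Neither passed, with limma adjusted p of 0.648 and 0.553. SCR1 was 48.4, 7.70 and 28.6 in protoplasts, against 46.7, 15.5 and 138 in tips. SCR1h was 83.2, 133 and 200.03 in protoplasts, against 53.7, 34.5 and 143 in tips. The groups overlapped for both copies. The balance was 2.49 in protoplasts and 0.45 in tips, with overlapping libraries (exact two-sided permutation p = 0.2).

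Outside the endodermis the copies tended to be high in the same libraries. Over those 21 libraries Pearson's r of the log2 values was 0.71 and Spearman's rho 0.51. Without root cap replicate 1 and quiescent center replicate 1, the libraries farthest from the median of SCR1, r was 0.35. Without quiescent center replicate 1 alone, r was 0.51 and rho 0.43 over 20 libraries, so the size of r depended on these libraries. These libraries share groups and depth, and the correlations are descriptions. Intact tips replicate 3 was the highest of its group for both copies, and 10.3% of all genes tested were over 2-fold above both other libraries there, against 4.95 and 2.56% in intact tips replicates 1 and 2. Root cap replicate 1 was likewise the highest of its group for both, with 10.2% of genes over 2-fold above both others, against 7.09 and 4.43% in replicates 2 and 3. Endodermis replicate 1, the lowest of its group for SCR1 and the highest for SCR1h, had 18.1% of genes over 2-fold above both others, against 2.22 and 2.44% in replicates 2 and 3. The part of these library differences in the spread of the pair was not tested.

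The genes whose pattern was most like each copy were different ones. By Pearson correlation of log2 values over 24 libraries, SCR1 was most like Zm00001d051936 (0.82) and Zm00001d045466 (0.78). Zm00001d051936 had 366 ± 86 in the endodermis, 213 ± 40 in the root cap and 38.6 ± 13.4 in the cortex (SD, n = 3), and it stayed among the closest without the endodermis libraries, at 0.82. Zm00001d045466 was low, at 16.9 ± 7.9 in the endodermis and at most 2.52 on average elsewhere, and its correlation was 0.43 without the endodermis. SCR1h was most like Zm00001d051628 (0.86) and Zm00001d016561 (0.85). Zm00001d051628 had 267 ± 211 in the endodermis, 1451 ± 287 in the root cap and 682 ± 110 in the stele, so it was lower but far from absent in the endodermis. Zm00001d016561 had 16.0 ± 8.2 in the endodermis, 444 ± 49 in the root cap and 60.4 ± 16.1 in the stele (SD, n = 3), and without the endodermis libraries its correlation was 0.75, at place 263 of 25545. The copies themselves had a correlation of −0.30 over all libraries, which put SCR1h at place 23537 of 25554 genes by likeness to SCR1. By Spearman over all libraries it was at place 12265 (0.031), and by Pearson without the endodermis libraries at place 35 of 25545 (0.71). These correlations share libraries and depth and are descriptions.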

How the data were processed

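The deposited table holds, for each of 24 libraries, a signal per gene that the authors made by dividing gene counts by a size factor per library. Trimmomatic, kallisto 0.43 and DESeq2 are named in the submitters' processing notes. Build and annotation: not given in the sources used here. Dividing the deposited values by a step per library (0.604 to 1.49, the worth of 1 read) gave whole numbers within a tolerance of 0.01 in 100% of values above 0, although this test is weak in 4 libraries whose step lay within 0.015 of 1. kallisto estimates counts, so the recovered reads are rounded estimates and reads of near-identical copies are uncertain. The authors' 8 columns of averages were not used. Replicate numbers follow the titles, from which the description field departs for replicate 3 of epidermis, stele and cortex.

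Genes with a value of at least 10 in at least 3 libraries (25555, both copies included) were fitted as log2(value + 1) with limma 3.58.1 in R 4.3.3, with a mean per group and a trended prior variance, and Benjamini-Hochberg adjustment ran over all genes of a comparison. On simulated reads, 96 of 100 genes changed 2 log2 units and 100 of 100 changed 3 log2 units were called for endodermis against the other sorted tissues, over 24708 genes tested. There were 9 false calls. The simulation gave every gene the same dispersion, changed no genes of low mean and held no deviant libraries. Its shares therefore do not measure the power for the pair in these data. Ratios were tested with exact permutation tests in scipy 1.17.1. Alternatives were pseudocounts of 10 and 0.5, no filter, TMM factors, quantile normalization, group weights, the compared groups alone, no quiescent center, a replicate block, each library left out, edgeR 4.0.16 and DESeq2 1.42.0 on recovered reads. The gene names come from the request for this description. Of the 39510 identifiers, 0 matched the reference table of 49888 genes, so the planned lists of pathway genes and cell type markers were not used here. For each copy the 2 genes with the highest Pearson correlation were named. The copies, comparisons and lists were chosen with earlier results of these data known. No pair of libraries of a group agreed within sampling noise, with chi-square per degree of freedom of at least 28.99.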

Additional observations from a re-analysis of the deposited data

How the results depend on the processing

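For SCR1, SCR1h, their sum and the balance of the copies, the comparisons were repeated under each alternative and 909 of 1018 values kept direction and side of the threshold. For the balance the threshold was an unadjusted exact permutation p below 0.05, although its adjusted p was 0.159. Calls of SCR1, the sum and the balance with the endodermis remain descriptions, since the sort used an SCR promoter. Results called for SCR1 kept their call in 135 of 143 refits, for SCR1h in 149 of 158 and for the sum in 95 of 108, and 0 changed direction. With the compared groups alone, SCR1h in endodermis against quiescent center gave no value, since the gene missed the filter on low values. The cause of the changes below was not tested.

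Of the small differences between dye-sorted tissues, SCR1 in cortex against epidermis and stele against epidermis turned to −0.068 and −0.11 with pseudocount 10, −0.32 and −1.04 with quantile normalization, −0.40 and −0.47 with edgeR and −0.34 and −0.43 with DESeq2. The sum in the quiescent center against dye-sorted tissues turned to 0.072 with edgeR and 0.19 with DESeq2. SCR1h in root cap against intact tips passed at 1.97 with pseudocount 10 and at 2.14 with group weights, with the compared groups alone and without the quiescent center, where the sum passed at 1.78. SCR1 in root cap against stele passed at 2.20 with pseudocount 10, 3.63 with quantile normalization, 2.79 with the compared groups alone and 3.06 with DESeq2. Against cortex it passed at 2.97 with DESeq2. SCR1h in root cap passed against cortex at 1.88 with pseudocount 10. With the compared groups alone it passed against epidermis, cortex and stele at 1.88, 2.00 and 1.66. The sum in endodermis against stele and against unsorted protoplasts passed at 3.50 and 2.91 with pseudocount 10, 3.59 and 2.79 with quantile normalization, 3.66 and 3.01 with edgeR, 3.64 and 2.96 with DESeq2, and at 3.61 and 2.98 with group weights, the compared groups alone and no quiescent center. SCR1h in endodermis against quiescent center, at −3.41, was lost with group weights (adjusted p = 0.0557), and the sum there, at 4.99, with the compared groups alone. The call of SCR1h in root cap against quiescent center was lost with group weights (limma adjusted p = 0.116) and the compared groups alone (limma 0.201). It was also lost with edgeR (edgeR adjusted p = 0.0967). SCR1 in endodermis against root cap was lost with pseudocount 0.5 (3.73; adjusted p = 0.0618). The correlation of the copies was 0.031 by Spearman and 0.71 without the endodermis.

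With each library left out in turn, SCR1h ranged from −5.15 to −2.53 in endodermis against quiescent center, −5.94 to −4.50 against stele, −2.45 to 0.16 in quiescent center against dye-sorted tissues and −0.27 to 0.0096 in cortex against epidermis. SCR1 ranged from −0.69 to 2.43 in quiescent center against dye-sorted tissues, −0.90 to 0.84 in cortex against epidermis, −0.35 to 0.29 in stele against cortex and −0.97 to 0.77 in stele against epidermis. The sum ranged from 3.74 to 4.06 in endodermis against cortex, −2.27 to 0.78 in quiescent center against dye-sorted tissues and −0.057 to 1.18 in unsorted protoplasts against intact tips. The balance of the copies ranged from −12.02 to −10.40.

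Whether equal replicate numbers pair libraries was checked on deviations from the group means: the 84 correlations averaged −0.0025, only 14 exceeded 0.1, and for 7 of 24 libraries the closest number was its own. The numbers were not taken as pairs. With a replicate block the endodermis differed from the other sorted tissues by 6.43 for SCR1 and −4.59 for SCR1h, the balance differed by −11.06 (exact permutation p = 0.01), and of the calls only SCR1 in endodermis against root cap was lost (adjusted p = 0.0522).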
